A study of Homo sapiens with 18 samples.

Results

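The 18 RNA-seq libraries come from MSC-hTERT, a human mesenchymal stem cell line immortalised with telomerase, and every library name ends in a replicate number. The 6 libraries that carry number 2 are described here against the 12 that carry number 1 or number 3. Number 2 holds 1 library of each of 6 constructs, as do number 1 and number 3, so the comparison is balanced over constructs. Number 2 was chosen by its low counts of FOS and EGR1, measured in these same 18 libraries. Differences between number 2 and the other numbers are therefore given as a description, with a standard error and no p-value for a single gene, and support nothing further.

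The constructs are pMSCV, the name of a retroviral vector and taken as the control, SRF, and the fusions of SRF with another gene, SRF-RELA, SRF-PDGFRB, SRF-ICA1L and SRF-FOXO1. SRF, serum response factor, is the DNA-binding protein whose gene is shared by all 4 fusions. All 18 libraries share the cell line and the medium, which per the labels held serum, the growth factor FGF-2, heparin, ascorbic acid and antibiotics. The labels give no dose, time of harvest or clone number, do not say whether libraries of 1 construct are separate cultures, and do not say what a replicate number marks. P-values therefore measure the spread between these libraries, which may be technical.

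FOS and EGR1 belong to the immediate early genes, which cells switch on within minutes of serum, growth factor or mechanical stimulation and whose transcripts decay quickly. At many of them SRF binds a CArG box, a short AT-rich element, together with ternary complex factors that the kinase ERK phosphorylates. At muscle and cytoskeletal genes SRF binds the same element together with cofactors of the myocardin family, which respond to actin polymerisation. FOS proteins pair with JUN proteins to form the transcription factor AP-1. In bulk RNA, fewer cells with a transcript and less transcript per cell cannot be told apart.

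The 250 bases before the RefSeq transcription start are shown for 6 genes (GRCh38.p14, 5′ to 3′ on the strand of the gene). FOS, EGR1 and DUSP1 were low in number 2, FBLIM1 was high, and ACTA1 and ACTC1 are actin genes of muscle whose number 2 levels were high in 2 constructs only. Capitals mark a CArG box or the motif TGACGTCA, the cyclic AMP response element. The windows are chr14:75278578-75278827 (plus strand) for FOS, chr5:138465229-138465478 (plus) for EGR1, chr5:172771196-172771445 (minus) for DUSP1, chr1:15758545-15758794 (plus) for FBLIM1, chr1:229434095-229434344 (minus) for ACTA1 and chr15:34795550-34795799 (minus) for ACTC1.
FOS: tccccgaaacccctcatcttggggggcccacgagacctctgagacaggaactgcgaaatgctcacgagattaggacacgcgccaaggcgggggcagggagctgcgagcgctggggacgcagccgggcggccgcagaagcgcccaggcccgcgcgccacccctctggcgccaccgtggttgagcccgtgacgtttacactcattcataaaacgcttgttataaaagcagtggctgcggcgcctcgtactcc
EGR1: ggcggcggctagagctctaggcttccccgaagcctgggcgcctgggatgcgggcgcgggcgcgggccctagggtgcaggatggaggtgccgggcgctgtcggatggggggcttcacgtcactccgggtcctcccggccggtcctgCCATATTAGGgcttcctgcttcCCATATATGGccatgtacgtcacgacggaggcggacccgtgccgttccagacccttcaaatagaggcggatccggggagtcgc
DUSP1: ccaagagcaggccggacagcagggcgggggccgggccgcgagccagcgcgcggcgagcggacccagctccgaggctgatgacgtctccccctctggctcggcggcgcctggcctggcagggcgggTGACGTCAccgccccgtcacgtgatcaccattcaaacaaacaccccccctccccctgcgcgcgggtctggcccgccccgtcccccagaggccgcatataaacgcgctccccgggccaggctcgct
FBLIM1: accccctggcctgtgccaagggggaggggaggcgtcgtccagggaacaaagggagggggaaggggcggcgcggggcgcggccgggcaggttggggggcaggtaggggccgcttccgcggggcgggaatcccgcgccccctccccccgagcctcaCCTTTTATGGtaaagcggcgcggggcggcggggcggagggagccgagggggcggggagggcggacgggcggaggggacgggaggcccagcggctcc
ACTA1: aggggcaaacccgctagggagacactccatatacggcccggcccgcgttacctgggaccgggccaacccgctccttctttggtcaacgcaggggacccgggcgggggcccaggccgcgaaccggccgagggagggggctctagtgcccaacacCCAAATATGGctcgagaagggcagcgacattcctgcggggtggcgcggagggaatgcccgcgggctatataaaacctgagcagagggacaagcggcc
ACTC1: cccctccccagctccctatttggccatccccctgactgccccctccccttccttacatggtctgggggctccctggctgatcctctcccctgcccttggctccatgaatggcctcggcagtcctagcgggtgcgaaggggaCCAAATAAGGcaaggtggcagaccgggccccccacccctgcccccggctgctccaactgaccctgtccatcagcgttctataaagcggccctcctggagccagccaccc
RefSeq gives FBLIM1 and ACTC1 3 windows each, of which the one holding a CArG box is shown. CArG boxes start 105 and 83 bases before the start in EGR1, 96 in FBLIM1, 97 in ACTA1 and 109 in ACTC1, and the TGACGTCA of DUSP1 starts 125 bases before. The FOS window holds none of the 4 motifs searched. Bases further upstream were not searched, so this does not show that FOS lacks a CArG box.

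Over all 34943 windows of 250 bases, searched on both strands, 1.16% hold a CArG box, 1.63% hold TGACGTCA, 6.59% hold TGANTCA, the AP-1 site, and 32% hold CCAAT. Windows matched 10 of the 12 genes named below as lowest in number 2, of which 1 holds a CArG box, 1 TGACGTCA, 1 CCAAT and 0 TGANTCA. They matched 11 of the 12 named as highest, of which 1 holds a CArG box, 4 CCAAT, and 0 either TGACGTCA or TGANTCA. A gene is counted if any of its windows holds the motif, while the percentages are shares of single windows, so the units differ. A match is only a description of these letters.

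Total counts ran from 19362319 to 29806771 per library, in which 26486 to 28344 genes were detected. SRF stood at 57.3 to 64.4 CPM (counts scaled to the library's total) in pMSCV libraries, 677.5 to 1122 in SRF libraries and 151 to 337 in the fusions, and its difference between number 2 and the others was 0.06 on the log2 scale. ICA1L, at 119.5 to 153 CPM, and RELA, at 234 to 268, were highest in the fusions named for them, without overlap, and PDGFRB stood at 525.6 to 930 CPM in SRF-PDGFRB against 315 to 621 elsewhere. FOXO1 was not, at 7.36 to 14.4 CPM in the libraries labelled SRF-FOXO1 against 9.45 to 17.5 in pMSCV, so it does not check that label. All 8 mesenchymal markers were detected, summed immune markers reached 4.26 CPM, CD3E was at 0 throughout, and EPCAM did not pass 0.537 CPM. Summed endothelial markers, nearly all of them TEK, were 73.6 to 131 CPM in number 1, 94.1 to 393 in number 2 and 93.1 to 269 in number 3. Mitochondrially encoded genes took 4.37 to 5.28% of the counts in number 2, against 4.52 to 5.16% in number 1 and 4.71 to 6.97% in number 3.

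**Figure D1:**
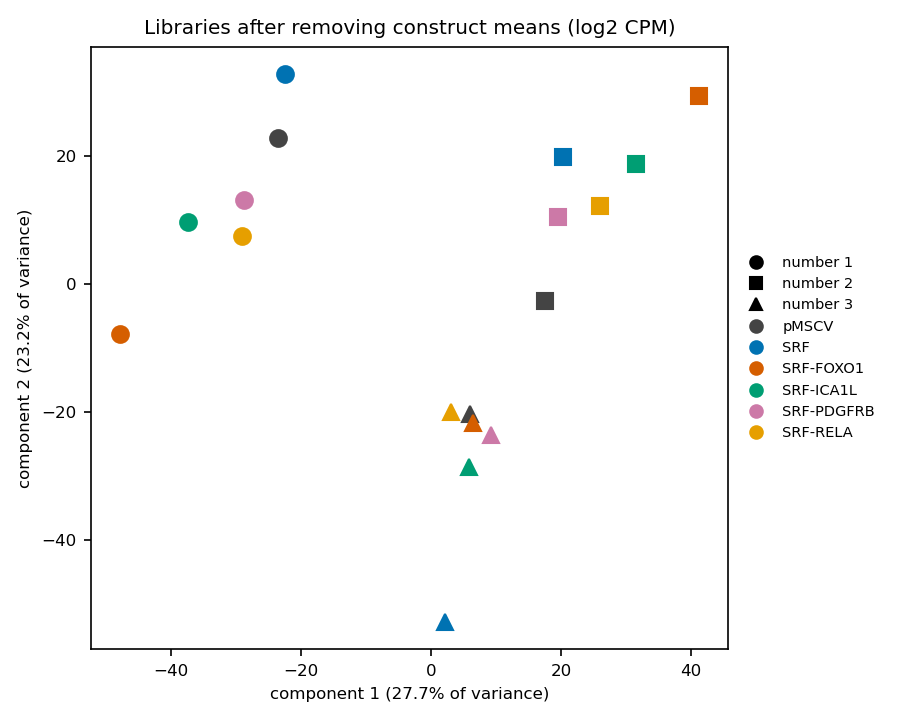
First and second principal component scores of log2 CPM after the mean of each construct was removed, with 1 point per library. The marker shape gives the replicate number, the colour the construct and the axis labels the share of variance. Number 2 libraries lie between 17.5 and 41.3 on the first component, right of the 12 others, and number 3 libraries lie lowest on the second.

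Within constructs, libraries of 1 number deviated together. On the plot of principal components, the first component held 27.7% of the variance left after construct means were removed. It placed number 1 between -47.8 and -22.4, number 3 between 2.13 and 9.22 and number 2 between 17.5 and 41.3, so that all 3 numbers stood apart. The second component, with 23.2%, placed number 3 between -52.7 and -19.9, below number 1 at -7.72 to 32.8 and number 2 at -2.61 to 29.4, and these last overlapped.

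Counts were fitted in edgeR with construct and number as terms, which compares number 2 (n = 6) with the mean of number 1 and number 3 (n = 12) inside constructs. Of 18544 tested genes, 2355 (12.7%) passed an adjusted p of 0.05 in edgeR's quasi-likelihood test with Benjamini-Hochberg adjustment, 1358 higher in number 2 (7.32%) and 997 lower (5.38%). These genes are said below to be called. The shares of 7.32% and 5.38% over all tested genes are the ones to set beside the counts for gene lists below. Since the same contrast chose number 2, nothing is read from the counts. Scaling by the total count instead of edgeR's TMM factors gave 1010 higher and 1329 lower, so the larger side depends on the scaling. Left out by itself, number 2 of SRF-FOXO1, SRF-ICA1L or SRF-RELA left 1160, 1304 or 1419 calls. At least 1 on the log2 scale was reached by 235 called genes higher in number 2 (1.27%) and 157 lower (0.847%). The median difference over all tested genes was -0.0008, with quartiles of -0.1453 and 0.1626.

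The number 2 libraries did not overlap with the 12 others in CPM in 28 genes higher in number 2 (0.151% of tested genes) and 60 lower (0.324%). In a larger set, all 6 constructs had number 2 on the same side of the mean of their other libraries, which held for 1710 genes higher (9.22%) and 1438 lower (7.75%). Of the 997 called lower, 581 had medians in the order number 2, number 3, number 1 from low to high, and 376 in the order 2, 1, 3. Of the 1358 called higher, 845 had the order 1, 3, 2.

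**Figure D2:**
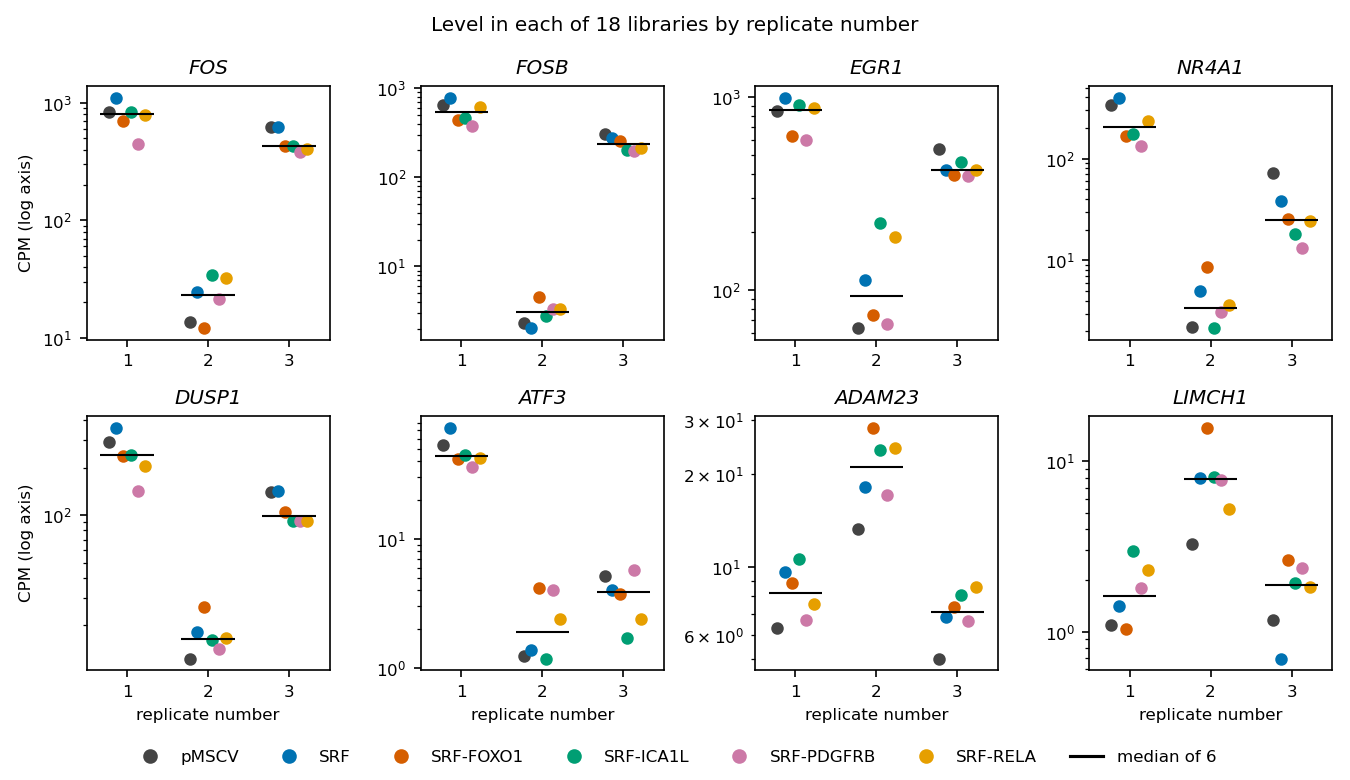
CPM on a log axis of 8 genes in the 18 libraries by replicate number, with 1 point per library and a line at the median of 6. FOS, FOSB, EGR1, NR4A1 and DUSP1 lie lowest in number 2 with no overlap, ATF3 is low in both number 2 and number 3, and ADAM23 and LIMCH1 lie highest in number 2.

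Among AP-1 genes the deficits were large. FOSB, which encodes a partner of JUN proteins, stood at 375, 538 and 784 CPM (lowest, median, highest of 6) in number 1, at 2.03, 3.07 and 4.502 in number 2 and at 198, 237 and 309 in number 3. Every number 2 library was far below every other, and number 3 lay below number 1 with no overlap. The log2 difference was -6.81 (SE 0.24).

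FOS stood at 449, 811 and 1114 CPM in number 1, 12.1, 22.9 and 34.4 in number 2 and 381, 429 and 631 in number 3, again with number 2 apart. For FOS the log2 difference was -4.70 (SE 0.25). ATF3, a stress-responsive member of the family, stood at 36.3, 43.8 and 72.7 CPM in number 1, but at 1.18, 1.88 and 4.15 in number 2 and 1.71, 3.89 and 5.78 in number 3. Numbers 2 and 3 overlapped, so the difference of -2.47 (SE 0.32) rests on number 1.

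Among the JUN genes the deficits were smaller. JUN stood at 259, 296 and 385 CPM in number 1, 128, 175 and 253 in number 2 and 325, 362 and 383 in number 3, a log2 difference of -0.84 (SE 0.09). JUNB differed by -0.97 (SE 0.14) and JUND, often held to be the constitutive member, by -0.46 (SE 0.07). None of these 3 had a number 2 library that overlapped with the others. FOSL1 differed by -0.72 (SE 0.12) with overlap.

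Of 11 AP-1 genes tested out of 12 listed, 7 were called lower and 1 higher, MAFK at 0.29 (SE 0.08). The median difference of the 11 was -0.72, against -0.0008 over all tested genes. FOSL2, BATF3 and MAFF, at 0.28, 0.39 and -0.09, were not called, and BATF was too low to test. The 7 lower calls held in each of the 18 fits that left out 1 library. They include FOS, by which number 2 was chosen, and all come from the contrast that chose it. The call of MAFK was lost without any of 5 libraries, number 2 of SRF, SRF-FOXO1, SRF-ICA1L or SRF-RELA or number 3 of SRF-ICA1L.

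EGR1, a zinc finger activator and a classic SRF target, stood at 597, 861 and 994 CPM in number 1, 63.7, 93.8 and 224 in number 2 and 392, 419 and 541 in number 3. The 3 numbers did not overlap, and the log2 difference was -2.35 (SE 0.22). The orphan nuclear receptor NR4A1 stood at 134, 204 and 399 CPM in number 1, 2.15, 3.37 and 8.65 in number 2 and 13.2, 25.04 and 72.3 in number 3. Here number 3 lay between the others with no overlap, and the difference was -4.25 (SE 0.36).

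NR4A1AS, annotated on the strand opposite NR4A1, stood at 7.70, 15.2 and 25.03 CPM in number 1 and 1.34, 2.00 and 6.79 in number 3. In number 2 its lowest and median values were 0 and its highest was 0.0383, and a count of 0 allows up to 3 counts. No fold is given for it. Whether strand was used in counting is not given in the sources used here, so reads of NR4A1 and NR4A1AS cannot be told apart.

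NR4A2, of the same receptor family, stood at 45.4, 71.9 and 197 CPM in number 1, 3.80, 6.05 and 17.2 in number 2 and 5.97, 11.95 and 34.1 in number 3. Number 2 overlapped with number 3 but not with number 1, and the difference was -2.36 (SE 0.23). NR4A3, the third member, was near 1 CPM in all numbers and was not called, at 0.46 (SE 0.27).

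ZFP36, whose protein binds AU-rich elements and speeds mRNA decay, stood at 99.0, 179 and 291 CPM in number 1, 14.9, 17.8 and 24.9 in number 2 and 50.3, 71.7 and 135 in number 3. PPP1R15A, the stress-induced phosphatase subunit GADD34, stood at 143, 158 and 200 CPM (numbers as before), then 29.6, 38.4 and 46.5, then 60.0, 69.8 and 91.9. Their log2 differences were -2.60 (SE 0.15) and -1.46 (SE 0.06). Number 2 lay apart in both genes, as it did for the pluripotency and endothelial factor KLF4 at -1.98 (SE 0.15) and the early gene IER2 at -1.13 (SE 0.10).

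Altogether 16 of 28 genes in this list of EGR, NR4A and IER genes were called lower and 0 higher, with a median of -0.66. Others called were EGR3 at -1.26 (SE 0.19), EGR2 at -0.89 (SE 0.14), the matricellular gene CCN1 at -1.13 (SE 0.21), the inhibitor of helix-loop-helix factors ID2 at -0.92 (SE 0.20) and the survival gene MCL1 at -0.70 (SE 0.09). KLF6, KLF2, ID3 and RHOB lay between -0.69 and -0.61. The list was not uniform, since MYC at -0.12 (SE 0.08), KLF10 at 0.36 (SE 0.12) and ARC at 0.48 (SE 0.22) were not called, and neither were EGR4, IER3, IER5, BTG2, GADD45B, CSRNP1, ID1 or SRF itself.

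ERK feedback genes encode phosphatases and adaptors that ERK signalling induces and that dampen it. DUSP1, a phosphatase of MAP kinases, stood at 143, 240 and 358 CPM in number 1, 12.3, 16.4 and 26.0 in number 2 and 91.2, 98.5 and 142 in number 3. Number 2 did not overlap, and the difference was -3.17 (SE 0.17). DUSP6, the phosphatase most specific for ERK, stood at 173, 208 and 226 CPM, then 54.3, 120 and 189, then 130, 213 and 263, with overlap and a difference of -0.87 (SE 0.16). PHLDA1 at -0.72 (SE 0.16), DUSP5 at -0.62 (SE 0.10) and SPRY2 at -0.54 (SE 0.07) were also called, so that 5 of 17 were lower and 0 higher, with a median of -0.11.

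By the rule for single genes, the 12 with the largest deficit and no overlap were taken from 44 that met it. Besides FOSB, FOS, NR4A1, NR4A1AS, DUSP1, ZFP36, EGR1 and KLF4 they held 4 others. SGK1, a kinase induced by serum and glucocorticoids, stood at 257, 398 and 509 CPM in number 1, 46.2, 57.9 and 84.7 in number 2 and 97.6, 134 and 195 in number 3, a difference of -1.84 (SE 0.17). MIR23AHG, the host gene of a microRNA cluster, stood at 123, 165 and 209 CPM, then 16.9, 20.2 and 25.8, then 26.0, 33.1 and 46.3, a difference of -1.78 (SE 0.10). Both had number 3 nearer to number 2 than to number 1.

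The long noncoding RNA LINC02154 took another order, at 18.9, 23.2 and 43.0 CPM in number 1, 8.02, 10.5 and 15.9 in number 2 and 60.3, 82.6 and 102 in number 3. All 3 numbers were apart, with number 3 highest, and the difference was -1.91 (SE 0.16). SP140, a chromatin reader better known from blood cells, stood at 8.20, 10.8 and 13.3 CPM, then 2.28, 2.93 and 3.57, then 4.42, 7.35 and 9.18, a difference of -1.57 (SE 0.13). In each of the 6 constructs, FOS, FOSB, EGR1, NR4A1, NR4A2, DUSP1, DUSP5, KLF4, SGK1, MIR23AHG and CCN1 had number 2 lowest and number 1 highest. Where a gene was picked for having no overlap, number 2 being lowest follows from that rule.

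On the high side, differences were smaller and the 12 genes were taken from 20. LIMCH1, an activator of nonmuscle myosin, stood at 1.04, 1.61 and 2.97 CPM in number 1, 3.27, 7.87 and 15.7 in number 2 and 0.694, 1.88 and 2.64 in number 3, a difference of 2.18 (SE 0.24). ADAM23, a cell adhesion protein of the disintegrin family, stood at 6.30, 8.20 and 10.6 CPM, then 13.2, 21.03 and 28.2, then 5.02, 7.14 and 8.57, a difference of 1.47 (SE 0.10). Numbers 1 and 3 overlapped in both genes and number 2 lay above them.

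PODNL1, a small leucine-rich proteoglycan, stood at 4.71, 5.53 and 5.99 CPM in number 1, 11.6, 17.4 and 27.9 in number 2 and 3.84, 6.92 and 9.76 in number 3, a difference of 1.60 (SE 0.12). GPAM, an acyltransferase of triglyceride synthesis, differed by 1.01 (SE 0.12) and FBLIM1, a focal adhesion protein that binds filamin, by 0.56 (SE 0.06). EPDR1, SLC25A23, METRN, SMAD9, ABCA2, ADAMTS10 and PLPPR2 lay between 0.52 and 0.96. In all 12, number 2 was the highest library of each of the 6 constructs, which the rule of no overlap fixes in advance.

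**Figure D3:**
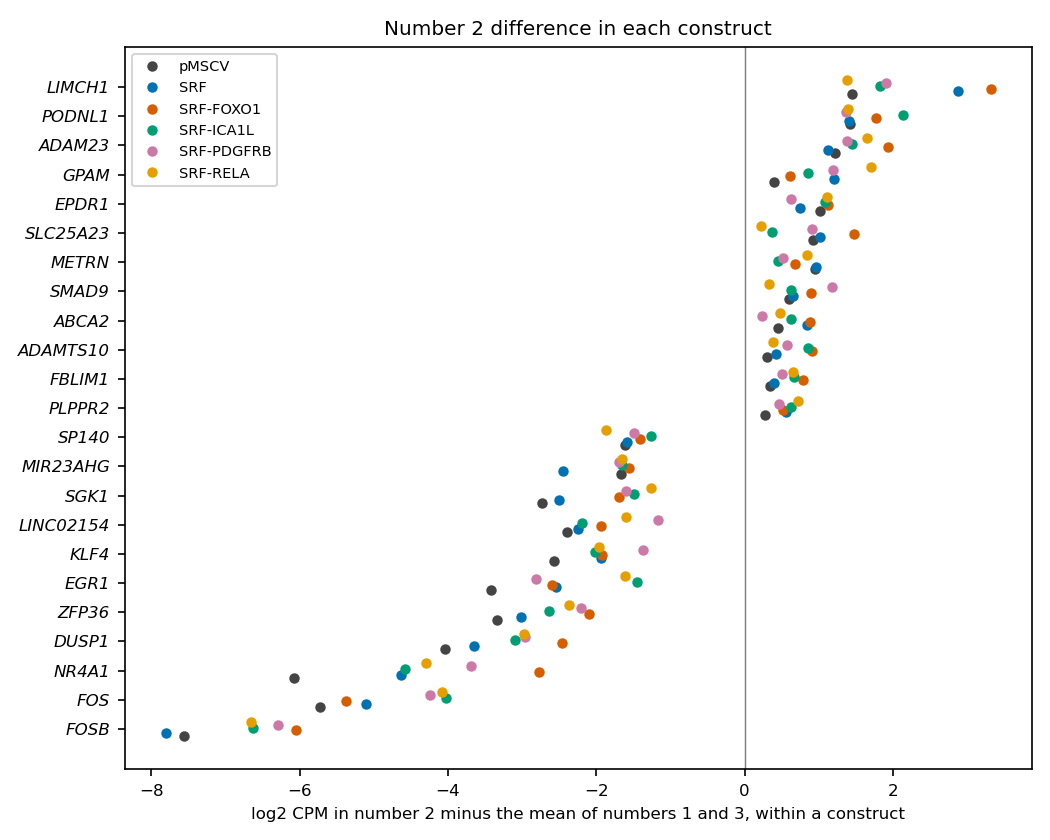
Log2 difference of the number 2 library from the mean of the number 1 and number 3 libraries, in each construct by itself, for 12 genes higher and 11 lower in number 2, with 1 point per construct and a line at 0. Every point of a gene lies on 1 side of the line, which follows from picking genes without overlap. MIR23AHG in SRF, at -2.45, lies below its other constructs.

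Smooth muscle genes, many of them SRF targets through myocardin, were higher in number 2 by amounts that varied with the construct, each of which has 1 library per number and so no test of its own. MYOCD, which encodes myocardin, stood at 0.106, 0.496 and 1.25 CPM in number 1, 0.946, 3.50 and 13.97 in number 2 and 0.167, 1.18 and 3.82 in number 3, a difference of 2.61 (SE 0.31). TAGLN, an actin-binding protein of smooth muscle, stood at 72.2, 216 and 360 CPM, then 191, 475 and 1182, then 146, 368 and 668, and differed by 0.88 (SE 0.17). The ranges of all 3 numbers overlapped, as libraries of different constructs were far apart.

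CNN1 at 1.09 (SE 0.16), LMOD1 at 1.11 (SE 0.19), JPH2 at 1.06 (SE 0.21), MYH11 at 1.43 (SE 0.43), CRYAB at 1.37 (SE 0.38) and CALD1 at 0.38 (SE 0.11) were also called. That made 8 of 15 tested higher and 0 lower, with a median of 0.81. ACTA2, at 0.81 (SE 0.27), was not called. Without number 2 or number 3 of SRF-FOXO1, or number 2 of SRF-RELA, 5 were called. MYH11 kept its call in 5 of 18 fits that left out 1 library, those without number 1 or 2 of pMSCV or SRF or number 2 of SRF-PDGFRB. CRYAB lost its call without any library of SRF-FOXO1, number 2 or 3 of SRF-ICA1L or number 2 of SRF-RELA. By construct the median of the list ran from 0.07 in SRF to 1.72 in SRF-FOXO1. Much of the difference lay against number 1, since 11 were called higher against number 1 alone and 2 against number 3 alone, with medians of 1.08 and 0.53. In SRF and SRF-PDGFRB the number 3 library had the higher median deviation from the construct mean, at 0.27 and 0.20 against 0.05 and 0.17 in number 2.

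The cardiac and skeletal actin genes, ACTC1 and ACTA1, were looked at after their values were seen. In number 2, ACTA1 had a median of 0.297 CPM but stood at 110 CPM in SRF-FOXO1 and 114 in SRF-RELA. ACTC1 likewise had a number 2 median of 0.330 and stood at 115 CPM in SRF-FOXO1 and 42.7 in SRF-RELA. Their differences over all constructs, 3.19 (SE 0.49) and 3.17 (SE 0.45), therefore stand for those constructs, and both genes overlapped between numbers.

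Of 25 cytoskeletal SRF targets 6 were called higher and 0 lower, with a median of 0.10. TPM1, a tropomyosin, differed by 0.64 (SE 0.13), MYL9, a myosin light chain, by 0.56 (SE 0.12) and TUFT1 by 0.63 (SE 0.12), while ACTB and ACTG1, the cytoplasmic actins, stood at 0.08 and 0.02 and were not called. Leaving out number 2 of either SRF-FOXO1 or SRF-RELA left 3 calls. Against number 1 alone 6 of the 25 were called higher and against number 3 alone 1, with a median of 0.15 in both. Of 20 YAP-TEAD targets, 5 were called higher and 2 lower. ANKRD1, whose product responds to mechanical load, was highest at 1.88 (SE 0.31), and CCN1 was lowest. Without number 2 of SRF, SRF-ICA1L or SRF-RELA 3 of the 5 were called, and without number 2 of SRF-FOXO1 2 were.

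Collagen genes were mostly higher in number 2. COL4A1, a chain of basement membrane collagen, stood at 478, 778 and 1044 CPM in number 1, 1586, 3281 and 4803 in number 2 and 1090, 2013 and 2381 in number 3. Number 2 overlapped with number 3 but not with number 1, and the difference was 1.51 (SE 0.14). COL4A2, its partner chain, differed by 1.00 (SE 0.11), COL5A1 by 0.84 (SE 0.16) and COL7A1, the collagen of anchoring fibrils, by 0.63 (SE 0.10).

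Of 31 collagens and collagen enzymes 18 were called higher and 0 lower, with a median of 0.45. COL3A1 and COL6A1, at 0.02 and -0.13, were not called. The count of 18 was 11 without number 2 of SRF-FOXO1 and 10 without number 2 of SRF-ICA1L. Against number 1 alone 21 were called higher, with a median of 0.55, and against number 3 alone 7, with a median of 0.29. Among 35 other matrix genes tested 10 were called higher and 5 lower, with EFEMP1, a fibulin, at 1.03 (SE 0.12), SPARC, a collagen-binding glycoprotein, at 0.88 (SE 0.17), elastin (ELN) at 1.26 (SE 0.31, its call lost without number 2 of SRF-FOXO1 or SRF-PDGFRB) and the proteoglycan OGN at -2.68 (SE 0.45). Without number 2 of any of the 4 fusions, 6 were called higher and 2 or 3 lower. OGN was near the floor in number 2, at 0, 0.0390 and 1.04 CPM.

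**Figure D4:**
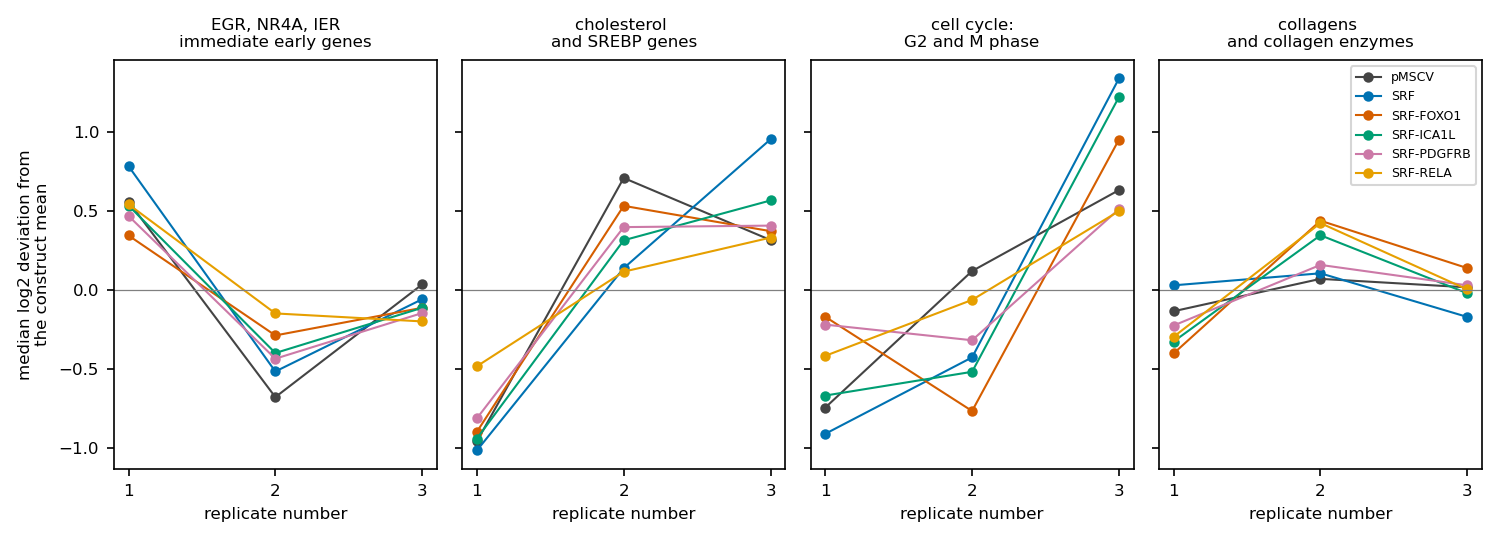
Median log2 deviation from the construct mean of 4 gene lists in each of the 18 libraries. The replicate number runs along the horizontal axis, and each construct is a line of its own colour. Immediate early genes are lowest in number 2 in every construct but SRF-RELA, where number 3 is lowest, while in each construct cholesterol genes are lowest in number 1, G2 and M phase genes highest in number 3 and collagens highest in number 2.

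Cholesterol genes separated number 1, not number 2, from the rest, as the plot of 4 lists shows. DHCR7, the last enzyme of cholesterol synthesis, stood at 11.3, 28.2 and 41.8 CPM in number 1, 71.8, 98.8 and 182 in number 2 and 70.4, 118 and 152 in number 3. Numbers 2 and 3 overlapped almost fully, so the difference of 1.04 (SE 0.16) rests on number 1. HMGCS1, an early enzyme of the pathway, differed by 0.88 (SE 0.19) and CYP51A1, which demethylates lanosterol, by 0.84 (SE 0.13). Against number 3 alone, DHCR7 and HMGCS1 turned to -0.03 and -0.18.

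Of 30 cholesterol and SREBP genes 22 were called higher in number 2 and 0 lower, and 20 of the 22 had medians in the order 1, 2, 3. The median of the list was 0.54 against the other numbers together, 1.27 against number 1 and -0.09 against number 3. These last comparisons share the number 2 libraries.

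Genes of G2 and M phase set number 3 apart. Of 30 genes of G2 and M phase tested, CDK1, the mitotic kinase, at -0.63 (SE 0.18) was the only one called for number 2 by edgeR, while DESeq2 called 15, all lower. The median of the list was 0.22 against number 1 and -1.19 against number 3. Without number 2 of pMSCV, 20 were called lower. The call of CDK1 was lost without any of 7 libraries, number 2 or 3 of SRF, number 1 or 2 of SRF-FOXO1 or SRF-PDGFRB, or number 2 of SRF-ICA1L.

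Of 25 S phase genes 10 were called lower in number 2 and 0 higher, with a median of -0.44, and all 10 had medians in the order 2, 1, 3. Much of the difference lay against number 3. Against number 1 alone 1 was called lower, with a median of -0.33, and against number 3 alone 14, with a median of -0.58. TYMS, thymidylate synthase, differed by -0.79 (SE 0.18), CDT1, a replication licensing factor, by -0.78 (SE 0.15), MCM5 by -0.67 (SE 0.16) and MCM2 by -0.65 (SE 0.16). Construct by construct the median of the list was 0.38 in pMSCV and between -0.97 and -0.42 in the others. The number of calls turned on single libraries, with 24 called without number 2 of pMSCV, 1 without number 2 of SRF-FOXO1 and 2 without number 2 of SRF, SRF-ICA1L or SRF-RELA. It moved by more than 1.5 times in 14 of the 18 fits that left out 1 library.

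**Figure D5:**
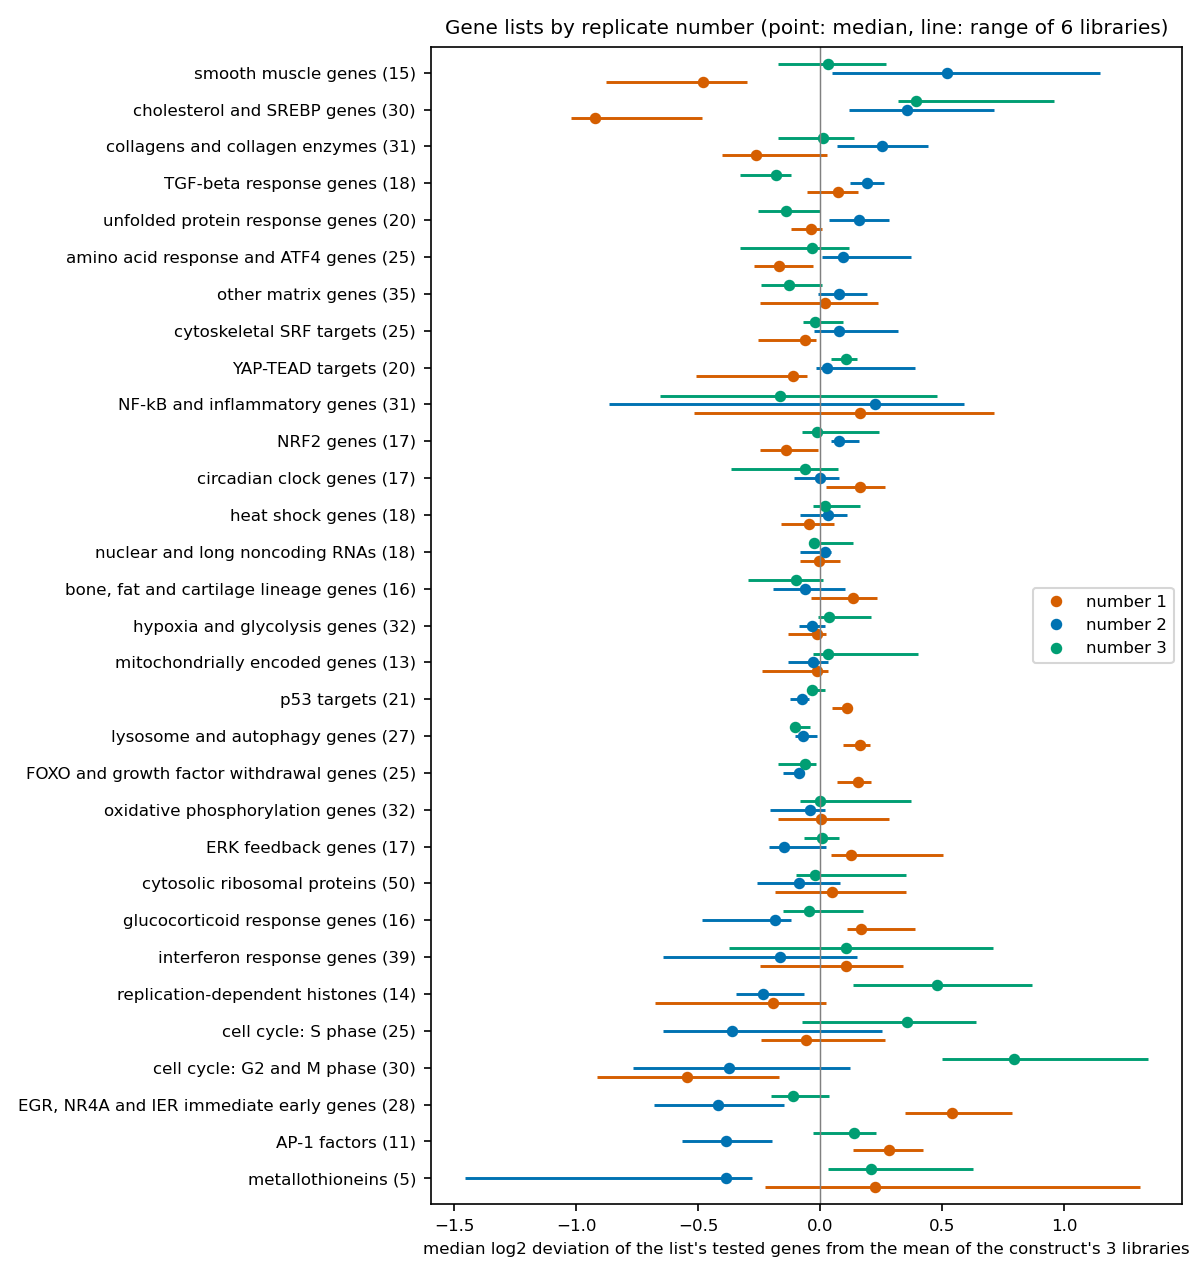
Median log2 deviation from the construct mean of 31 gene lists, by replicate number, with a point at the median of 6 libraries and a line over their range. The EGR, NR4A and IER list, the metallothioneins and the AP-1 list have the lowest number 2 medians, while ribosomal, mitochondrial and oxidative phosphorylation lists lie near 0 in all numbers.

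Of 18 TGF-beta response genes 8 were called higher and 1, JUNB, lower, with the cytokine IL11 at 1.03 (SE 0.17), the ligand TGFB2 at 0.72 (SE 0.17) and PMEPA1, a feedback inhibitor, at 0.69 (SE 0.11). Leaving out number 2 of SRF-FOXO1 or SRF-ICA1L left 5 called higher. Of 20 unfolded protein response genes 10 were called higher and 0 lower, with the chaperone HYOU1 at 0.50 (SE 0.09) and the transcription factor XBP1 at 0.43 (SE 0.07). Without number 2 of SRF-FOXO1 5 were called, and without number 2 of SRF-PDGFRB or SRF-RELA 6. Of 25 ATF4 and amino acid response genes 7 were higher and 1 lower, led by CHAC1, which degrades glutathione, at 1.05 (SE 0.18). The shares called over all tested genes were 7.32% higher and 5.38% lower.

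On the low side, 3 of 5 metallothionein genes tested were called, among them the metal-binding MT1E at -1.16 (SE 0.23) and MT2A at -1.04 (SE 0.24), and 0 were higher. Glucocorticoid response genes gave 6 of 16 lower and 0 higher, of which DUSP1 and SGK1 were described above. Interferon response genes gave 5 of 39 lower and 0 higher, with IFIT3 at -0.66 (SE 0.17), and 1 or 3 were called without number 2 of SRF-FOXO1 or of SRF. By construct the median of the interferon list ran from -0.97 in pMSCV to 0.23 in SRF-RELA, and was above 0 in 2 of 6 constructs. Over all tested genes 5.38% were called lower and 7.32% higher. Clock genes gave 6 of 17 lower and 2 higher, with the repressor NR1D1 at -0.64 (SE 0.10), PER1 at -0.55 (SE 0.11) and the activator NPAS2 at 0.55 (SE 0.09). All 6 lower clock genes had medians in the order 2, 3, 1. The 2 higher became 3 without number 2 of pMSCV or number 1 or 2 of SRF, and 1 without number 3 of SRF or any 1 library of a fusion.

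Of 25 FOXO and growth factor withdrawal genes 5 were lower and 1 higher, beside 5.38% lower and 7.32% higher over all tested genes. ARRDC3, an arrestin-like adaptor, differed by -1.003 (SE 0.09), FBXO32, a ubiquitin ligase subunit, by -0.65 (SE 0.08) and TXNIP, a thioredoxin inhibitor, by 0.77 (SE 0.08). In all 3 number 1 stood apart, since TXNIP had medians of 73.8, 186 and 187 CPM in numbers 1, 2 and 3 and ARRDC3 had 87.8, 25.4 and 30.0. Leaving out number 2 of SRF-ICA1L or SRF-RELA left 3 called lower. Of 27 lysosome and autophagy genes 7 were lower and 2 higher, with GPNMB at -1.10 (SE 0.10) and the autophagy receptor SQSTM1 at -0.67 (SE 0.09). Without number 2 of SRF-FOXO1 or SRF-ICA1L 4 were lower. The lower calls lay mostly against number 1. Against number 1 alone 11 were lower and 2 higher, while against number 3 alone 1 was lower and 4 were higher. Between the other numbers, 13 of the 27 were higher in number 1 than in number 3 and 2 lower.

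No gene was called among 13 mitochondrially encoded genes, 50 ribosomal protein genes or 32 oxidative phosphorylation genes, whose medians were -0.05, -0.14 and -0.11, and DESeq2 called 0 in them as well. Called genes of the heat shock, hypoxia, p53, NRF2, NF-kB, histone, lineage and noncoding RNA lists numbered at most 5 in a direction and shifted with single libraries. Of the markers of other cell types, 2 epithelial keratins were called higher in number 2, KRT18 at 0.83 (SE 0.12) and KRT8 at 0.27 (SE 0.07). From low to high, KRT18 had the order 1, 2, 3 in 3 constructs and 1, 3, 2 in 3, and KRT8 in 4 and 2. The tight junction gene CLDN4 was called lower at -0.42 (SE 0.12), a call lost in 11 of the 18 fits that left out 1 library. Against number 1 alone 2 epithelial markers were called higher and 1 lower, and against number 3 alone 0 either way. Of 5 endothelial markers 2 were called higher, the receptor TEK at 0.77 (SE 0.16) and VWF at 1.23 (SE 0.30), the latter at no more than 1.46 CPM. Against number 1 alone 2 endothelial markers were called higher, and against number 3 alone 0. EPCAM, KRT19 and ESRP1 reached at most 0.537, 0.268 and 0.101 CPM and CDH5, the endothelial cadherin, 1.96. The part of other cells in any difference was not tested.

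The contrast of number 1 with number 3 was not used to choose number 2 and was tested in the same fit (n = 6 each). Of 18544 genes 2967 passed (16.0%), 1454 higher in number 1 (7.84%) and 1513 lower (8.16%), against 2355 for number 2. That order turned without number 1 of SRF, at 2342 against 2798, and without number 1 of pMSCV, at 2275 against 2334. In edgeR's quasi-likelihood test, FOS was 0.69 higher in number 1 than in number 3 (adjusted p = 0.0430), FOSB 1.20 (adjusted p = 0.000634) and EGR1 0.87 (adjusted p = 0.0179), each on the log2 scale. Larger were NR4A2 at 2.63 (adjusted p = 1.57e-05), NR4A1 at 3.03 (adjusted p = 9.54e-05) and ATF3 at 3.77 (SE 0.33, adjusted p = 1.50e-05). JUN, JUNB and IER2 did not pass, at -0.22, 0.10 and -0.11 (adjusted p = 0.169, 0.713 and 0.582).

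Of the list of EGR, NR4A and IER genes, 17 of 28 were higher in number 1 than in number 3 and 1 lower. For AP-1 genes 5 of 11 were higher and 0 lower, but 3 in 11 of the 18 fits that left out 1 library, namely all those without number 1 or number 3 of SRF, SRF-FOXO1 or SRF-RELA, without number 1 of pMSCV or SRF-ICA1L, without number 2 of SRF or without number 2 or 3 of SRF-PDGFRB. In the opposite direction, 28 of 30 cholesterol genes (median -1.30) and all 30 G2 and M phase genes tested (median -1.39) were lower in number 1 than in number 3, as were 10 of 31 collagen genes. The median over all tested genes was 0.0004.

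Among the genes with the largest difference between numbers 1 and 3 were SLC7A8, an amino acid transporter, with medians of 12.98 and 1.70 CPM and a log2 difference of 2.89 (SE 0.13, adjusted p = 5.77e-09), and the inhibitor of differentiation ID4 at 2.86 (SE 0.28, adjusted p = 1.19e-05). Lower in number 1 were the transcription factor FOXS1 at -2.95 (SE 0.32, adjusted p = 3.35e-05), the endothelial lipase LIPG at -2.62 (SE 0.19, adjusted p = 1.12e-06) and the keratin KRT80 at -2.48 (SE 0.24, adjusted p = 1.44e-05). SEMA3E, a guidance cue, was at -2.77 (SE 0.25, adjusted p = 9.77e-06). MMP1, a collagenase, at 3.04 (SE 0.81, adjusted p = 0.0251) did not pass without any of 9 libraries, number 1 of pMSCV and number 1 or 3 of SRF, SRF-FOXO1 or SRF-ICA1L and number 3 of SRF-PDGFRB or SRF-RELA (largest adjusted p = 0.0773). ACTC1 at -3.14 (SE 0.65, adjusted p = 0.00735) did not pass without number 1 of SRF-FOXO1 (adjusted p = 0.0802). The 12 genes named as highest in number 2 did not pass between numbers 1 and 3.

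Whether the number 2 difference was of another size in the 4 fusions than in pMSCV and SRF was tested as an interaction. In edgeR's quasi-likelihood test 0 genes passed (0.00%), 1346 had an unadjusted p under 0.05 (7.26%), and DESeq2 called 77. The smallest p belonged to SGK1, named after its value was seen, whose difference was 1.11 (SE 0.17) nearer to 0 in the fusions (adjusted p = 0.132). For the immediate early list the median difference by construct ran from -1.02 in pMSCV to -0.22 in SRF-RELA. An interaction that misses the threshold does not show that the constructs were alike.

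With number in the fit, 1626 genes differed between the 6 constructs (8.77%), against 310 (1.67%) without it, and the biological coefficient of variation was 0.150 against 0.225. Without number 3 of SRF the first count was 2592. Of all tested genes, 636 were called both for number 2 and between constructs (3.43%).

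Transcript length moved with the number 2 difference, and also with the difference between numbers 1 and 3, whose median ran from -0.05 in the shortest to 0.05 in the longest genes. Genes were split into 4 equal groups by their longest transcript. In the shortest group, up to 1787 bases, the median difference was -0.07 and 2.84% were called higher and 4.70% lower. In the longest group, from 4882 bases, the median was 0.08 and 11.8% were called higher and 4.12% lower. The share called higher ran from 5.83% in the group lowest in GC to 9.56% in the highest, among 4 groups. With a correction for length in the fit, 1375 genes were called higher and 1257 lower, and 114 of 120 genes named for number 2 kept their call and direction.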

How the data were processed

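RNA of 18 MSC-hTERT libraries (6 constructs, replicate numbers 1 to 3) was sequenced from stranded mRNA libraries on an Illumina NovaSeq, per the labels' protocols. The authors deposited raw counts per Ensembl gene for each library, per the file headers. The submitters' processing notes name FastQC 0.11.8, Trimmomatic 0.39, HISAT2, featureCounts, Subread 2.0.3 and the build GRCh38, with no order. Which annotation was counted, and whether strand was used, is not given in the sources used here.

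Of 61487 identifiers, 61369 took a symbol from a table of gene names and 105 from GENCODE release 29, which also gave transcript lengths and GC content. CPM is a count scaled to the library's total. Genes passing filterByExpr at a minimum count of 10 were scaled by TMM and fitted with edgeR 4.0.16 (R 4.3.3), as a robust quasi-likelihood model with construct and number as terms and 10 residual degrees of freedom. The interaction fit had 9. Calls needed an adjusted p under 0.05 (Benjamini-Hochberg over 18544 genes). A standard error is the absolute log2 difference divided by the square root of F. The code was tested on simulated data.

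Named genes are FOS and EGR1, the 12 highest and 12 lowest for number 2 among called genes whose ranges did not overlap and whose log2 CPM averaged 1 or more, up to 4 called members per list by size, and up to 5 genes each way for number 1 against 3. Members of the AP-1 and EGR lists could all be described, and further members of other lists were named to account for a list's calls. The members and lists were chosen with earlier results of these data known.

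Libraries of the same number deviated together from their construct means. Of 45 pairs from different constructs, 44 correlated over 0.1, the exception being number 1 of SRF and SRF-FOXO1 at 0.087. The pairing is read from these values, not from the labels. Alternatives were other scalings, filters, thresholds and tests (DESeq2 1.42.0), each library left out, and a length correction chosen after the data were seen. Promoter windows are RefSeq's. A further gene, which the rule for lists names, is not reported here.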

Additional observations from a re-analysis of the deposited data

Results flagged for a closer look

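Groups of 6 values, 1 per construct, were searched for a value far from the other 5 (a gap of more than 0.625 of the group's range, Dixon's criterion). Of 45 groups 4 had such a value, and chance gives about 1 in 20. For MIR23AHG the difference of number 2 in SRF was -2.45, against -1.70 to -1.56 in the other constructs. The other 3 values belong to a single library, number 3 of SRF. Its mitochondrial share was 6.97% of counts, against 4.71 to 5.23% in the other number 3 libraries, and its ribosomal protein share was 5.56%, against 3.43 to 3.89%. On the second principal component it stood at -52.71, against -28.58 to -19.88. Without that library 2592 genes differed between constructs.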

How the results depend on the processing

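The 2355 calls for number 2 became 392 with a log2 difference of at least 1, 1072 with number 2 against a single class of others, 1850 against number 3 alone, 2852 in DESeq2, and 1160 to 2952 with 1 library left out. The 2967 calls between numbers 1 and 3 became 688 at a log2 difference of 1 and 2266 to 3316 with 1 library left out. The interaction, with 0 calls, gave 67 without a filter, 77 in DESeq2, 5 with the length correction and 0 to 7 with 1 library left out. The 1626 calls between constructs became 2455 without a filter, 3192 in DESeq2, 310 with no replicate block (number taken out of the fit) and 1092 to 2592 with 1 library left out. Against number 3 alone, 4 of 120 named genes changed sign, DHCR7 (-0.0278), HMGCS1 (-0.177), SLC2A3 (0.0632) and HMOX1 (0.153), 43 lost their call and 73 kept it. Of the 120, 107 kept their call against number 1 alone, 118 in DESeq2, 114 with scaling by total count, 97 without a filter and 69 (51 lost) with number 2 against a single class of others. The causes of these changes were not tested. Depth limits genes near 0 in number 2, such as NR4A1AS and OGN.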
